A study of Mus musculus with 4 samples.

Results

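The integrated stress response is a route by which a cell answers amino acid shortage, misfolded protein, haem shortage, mitochondrial stress or double-stranded RNA with one shared signal, phosphorylation of the translation factor eIF2alpha. General translation then slows, while the mRNA of the transcription factor ATF4 is translated better, and ATF4 induces genes for amino acid supply, redox balance and, when stress lasts, cell death. Phenformin, a biguanide, inhibits complex I of the respiratory chain, a form of mitochondrial stress. Poly I:C mimics viral double-stranded RNA and is known to activate the eIF2alpha kinase PKR as well as innate immune receptors. The genes described here are 10 ATF4-linked genes (Atf4, Ddit3, Trib3, Asns, Chac1, Sesn2, Atf5, Psat1, Phgdh and Ddit4), chosen by name from the 27998 features of the expression matrices. All 10 were found.

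They were measured by droplet-based 3' RNA sequencing in cells from orthotopic MT4788 mammary tumours, a syngeneic mouse line, in wild-type FVB mice at day 4. Each of the 4 treatments gave 1 library. They are named here phenformin (given with saline), combination (both agents), poly I:C (given with PBS) and control (saline and PBS only). All 4 samples were dissociated and enriched with CD45 beads, and about 10000 cells were loaded per treatment, over 90% of them CD45-positive and negative for CD31 and EpCam per the labels. The sources used here state no dose, schedule, age or number of mice per sample. The enrichment sets the share of each cell type, and the tumour cells and fibroblasts described below are those that passed through it. Because a treatment has a single library, treatments could not be tested against each other. Values are set side by side, and every 95% interval covers counting error only, not the difference between animals.

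A barcode was kept as a cell where it had 200 or more genes and fewer than 20% of its UMIs (unique molecular identifiers, 1 per captured mRNA molecule) from mitochondrial genes. The phenformin, combination, poly I:C and control libraries held 5453, 8268, 6619 and 6095 such cells with 61097586, 71308923, 76070132 and 57332308 UMIs. Gates on raw UMIs gave 209, 420, 592 and 376 tumour cells (Krt5 plus Krt14), 2268, 2759, 2641 and 2030 macrophages (Csf1r, Cd68 and Adgre1), 1493, 3064, 2159 and 1626 T cells (Cd3d, Cd3e and Cd3g), 178, 280, 211 and 218 neutrophils (S100a8 and S100a9 with Csf3r or Cxcr2) and 12, 40, 41 and 15 fibroblasts (Col1a1 and Col3a1). A separate list of 6 markers per gate was also read, of which 5 were among the features for T cells. Each marker found was present in its own gate in every library. In the T gate macrophage markers summed to 1176, 2941, 4936 and 953 CPM, beside 1141, 1142, 935 and 1233 CPM for the T markers. The neutrophil gate was mixed: 12.9%, 21.4%, 35.1% and 15.6% of its cells also passed another gate, and macrophage markers summed to 4873, 8363, 9092 and 1520 CPM there. Libraries shared between 8 and 21 cell barcodes per pair. Levels are CPM throughout, the UMIs of a gene per 1000000 UMIs of the summed cells of a gate. A gene is called higher or lower where the ratio of 2 libraries is at least 1.5-fold and its 95% interval leaves out 1, among genes with at least 40 UMIs over the 4 libraries in that gate.

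Among the transcription factors, Atf4 (chromosome 15, 80255184 to 80257541, GRCm38) is the regulator through which the response runs, and much of its own control is translational, so its mRNA need not follow its activity. In the tumour gate Atf4 stood at 268, 273, 264 and 244 CPM in phenformin, combination, poly I:C and control, above the T gate (146, 158, 159 and 157 CPM) and the macrophage gate (164, 133, 136 and 148 CPM) in every library. Neutrophils had 154, 154, 199 and 218 CPM, with intervals that overlapped those of T cells in phenformin and combination. Atf4 mRNA was thus widespread, and its range within a gate was narrow except among neutrophils and the few fibroblasts.

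Ddit3 (chromosome 10, 127290774 to 127296288) encodes CHOP, a factor linked to cell death under lasting stress. Its level depended on gate and treatment together. In neutrophils it was 66.1, 182, 131 and 79.2 CPM in phenformin, combination, poly I:C and control, the highest of the 4 larger gates in each library. Tumour cells had 36.8, 34.4, 45.7 and 47.3 CPM, in the same order of libraries. Macrophages had 24.4, 48.3, 47.8 and 25.1 CPM and T cells 18.4, 33.1, 34.9 and 18.2 CPM, so that both libraries with poly I:C stood above both without it. In the control tumour gate 1 cell held 53 of the 468 Ddit3 UMIs.

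Atf5 (chromosome 7, 44812256 to 44816658) is a related factor known for the mitochondrial stress response. Its mRNA was highest in tumour cells, at 98.2, 63.8, 62.3 and 114 CPM in phenformin, combination, poly I:C and control, apart from the fibroblast gate (85.9, 94.6, 117 and 117 CPM). It ranged only between 6.87 and 11.6 CPM in macrophages and T cells. Trib3 (chromosome 2, 152337422 to 152344032), a pseudokinase that restrains ATF4 and CHOP, was likewise mainly a tumour-gate transcript, at 15.6, 15.0, 19.1 and 19.1 CPM, against at most 5.91 CPM in any immune gate.

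Chac1 (chromosome 2, 119351229 to 119354381) degrades glutathione and is among the most ATF4-dependent genes known. It was scarce in untreated cells, with 2.83 CPM (95% interval 1.88 to 4.09) in control tumour cells, 1.38 CPM in T cells and 1.07 CPM in macrophages. Both libraries with poly I:C had more in tumour cells and T cells than either library without it. Sesn2 (chromosome 4, 132492032 to 132510501), a leucine sensor that restrains the mTORC1 kinase, was at 8.49 to 13.7 CPM in T cells, 10.1 to 11.9 CPM in tumour cells, 24.96 to 30.3 CPM in macrophages and 35.1 to 48.9 CPM in neutrophils. The neutrophil and macrophage intervals overlapped in phenformin and poly I:C and not in combination and control. Ddit4 (chromosome 10, 59949669 to 59951834), which encodes the mTORC1 inhibitor REDD1 and also answers hypoxia and glucocorticoids, was highest in T cells among the 4 larger gates, at 98.0 to 106 CPM, with macrophages at 60.0 to 74.2 CPM.

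The 3 amino acid synthesis genes were highest in tumour cells, then T cells, then macrophages. Asns (chromosome 6, 7675169 to 7693254), asparagine synthetase, stood at 85.4, 87.8, 81.9 and 92.6 CPM in tumour cells of phenformin, combination, poly I:C and control, at 12.7 to 16.3 CPM in T cells and at 3.78 to 4.80 CPM in macrophages. Phgdh (chromosome 3, 98313170 to 98339990), which opens the serine synthesis route, stood at 147, 197, 175 and 142 CPM in tumour cells, at 82.1 to 106 CPM in T cells and at 8.002 to 10.9 CPM in macrophages. Psat1 (chromosome 19, 15904678 to 15947337), the next enzyme of that route, had 59.8 to 70.5 CPM in tumour cells, 27.0 to 43.9 CPM in T cells and 11.4 to 19.9 CPM in macrophages. If all Krt5 and Krt14 UMIs of that gate came from tumour cells, tumour RNA would supply 28.5% to 48.4% of its Asns and 25.4% to 44.9% of its Phgdh, but only 5.33% to 12.8% of its Psat1.

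**Figure D1:**
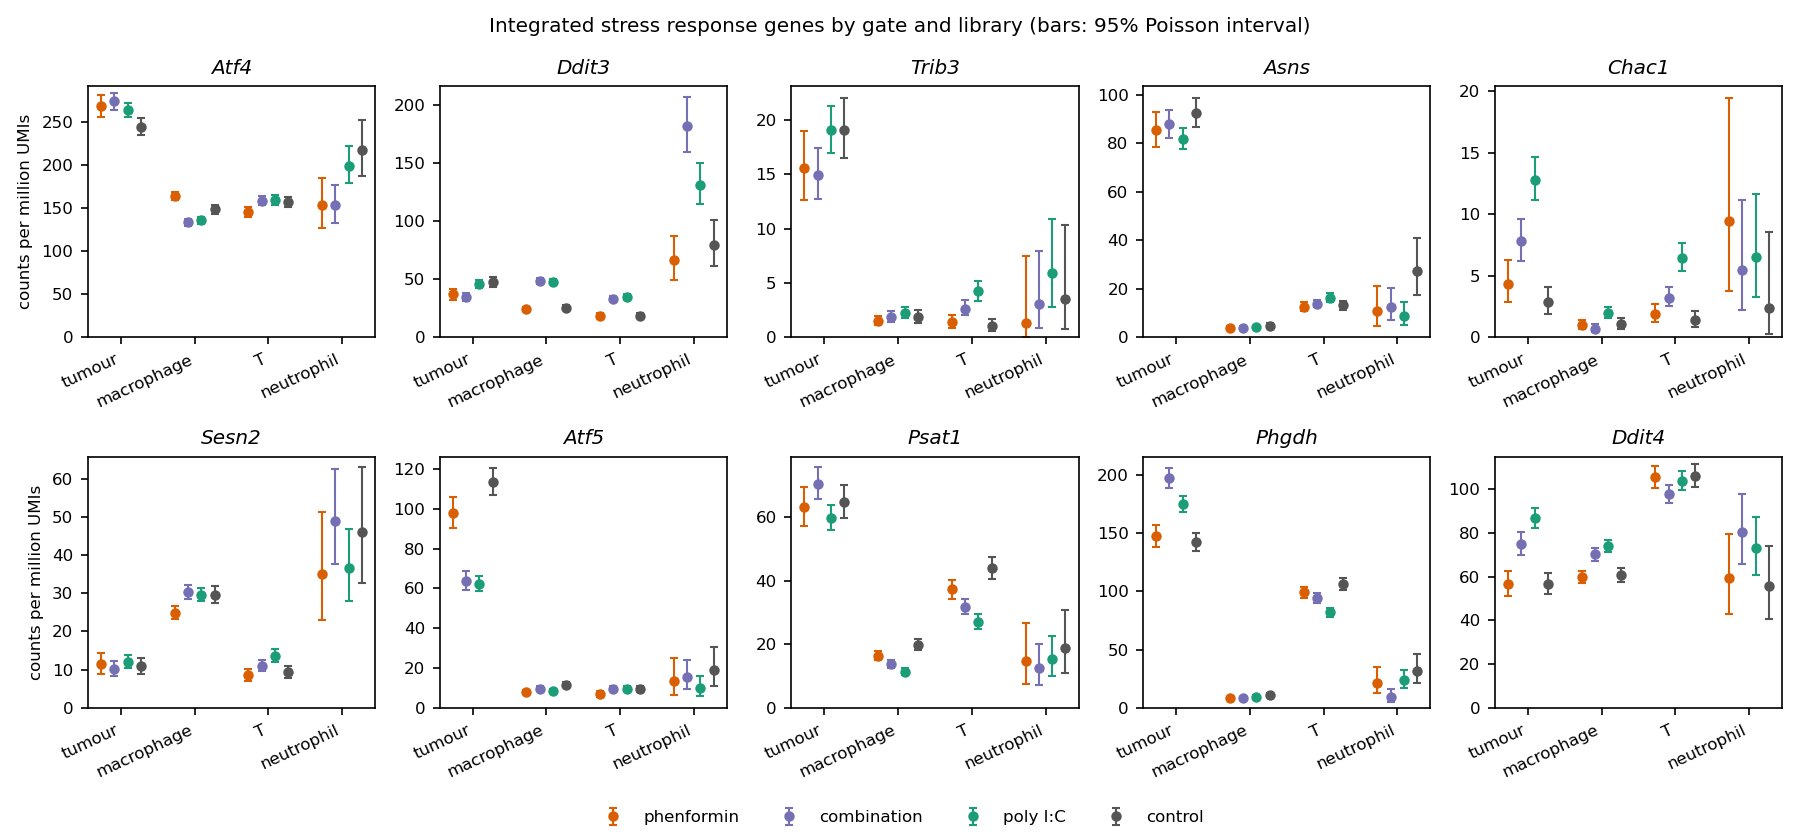
Levels of the 10 genes in CPM (vertical axes, each from 0) in the tumour, macrophage, T and neutrophil gates; each point is 1 library (phenformin, combination, poly I:C, control from left to right) and bars are 95% Poisson intervals. Asns, Atf5, Phgdh and Trib3 stand highest in the tumour gate, while Ddit3 is highest in neutrophils and differs by poly I:C in macrophages and T cells.

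The promoters of Ddit3, Chac1 and Asns are shown because the first 2 carry the treatment differences below while Asns differed little in tumour cells. Each is the 250 bases before a RefSeq start of the gene, 5′ to 3′ on the gene's strand, on GRCm38.p6. In these 3 genes that start lies inside the gene span given above, so the last bases of each window fall within that span. All 10 genes were matched to RefSeq, with 12 windows of 250 bases before to 50 bases after a start. Capitals mark matches to TGATGNAA, the letters used here for the C/EBP-ATF response element that ATF4 binds with its C/EBP partners, searched on both strands. The 3 windows lie at chr10:127290543-127290792 on the plus strand (Ddit3), chr2:119350992-119351241 on the plus strand (Chac1) and chr6:7693210-7693459 on the minus strand (Asns).
Ddit3: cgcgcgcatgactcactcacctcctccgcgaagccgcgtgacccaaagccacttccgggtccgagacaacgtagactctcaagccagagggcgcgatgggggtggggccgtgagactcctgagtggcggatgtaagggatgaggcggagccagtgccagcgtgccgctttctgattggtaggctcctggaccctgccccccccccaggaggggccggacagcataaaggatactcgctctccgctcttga
Chac1: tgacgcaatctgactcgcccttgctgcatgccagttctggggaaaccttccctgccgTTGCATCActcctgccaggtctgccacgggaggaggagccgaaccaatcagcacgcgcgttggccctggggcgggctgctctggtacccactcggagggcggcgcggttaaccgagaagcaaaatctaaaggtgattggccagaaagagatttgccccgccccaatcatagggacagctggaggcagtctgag
Asns: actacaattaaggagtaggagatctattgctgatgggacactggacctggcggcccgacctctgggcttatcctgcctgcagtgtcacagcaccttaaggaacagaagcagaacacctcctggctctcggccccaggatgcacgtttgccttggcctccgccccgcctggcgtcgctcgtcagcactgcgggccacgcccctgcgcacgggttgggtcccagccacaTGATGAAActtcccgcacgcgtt
The match in Asns begins 23 bases before its RefSeq start, inside the gene span given above. That in Chac1 begins 193 bases before its RefSeq start, on the opposite strand. Trib3 had the only other match, 15 bases after its start and on the opposite strand. So 3 of the 10 genes held the letters in a window, against 4.51% of all 27025 genes (3.97% of all 32851 windows), and Ddit3 and the other 6 held none within these 300 bases. The ER stress element, searched by its usual letters on both strands, was in none of the 12 windows and in 0.119% of all windows. A match is a description of letters and not a binding site.

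With phenformin alone, no gene of the set was called in tumour cells, macrophages or T cells, the 3 largest gates by UMIs. In the tumour gate Ddit3 stood at 36.8 CPM with phenformin and 47.3 CPM in control (ratio 0.777, 95% interval 0.662 to 0.911), short of 1.5-fold. The control value includes the 1 cell that held 53 of the 468 Ddit3 UMIs, and the ratio without that cell was not computed. Chac1 had 4.36 CPM with phenformin and 2.83 CPM in control (ratio 1.54, 95% interval 0.879 to 2.70), a difference within counting error. Asns (0.922), Psat1 (0.974), Phgdh (1.04), Ddit4 (1.002) and Atf4 (1.10) had ratios near 1, with intervals that lay between 0.828 and 1.17. Among the 10 genes 0 were called higher and 0 lower in tumour cells, macrophages or T cells. Of all genes compared, 1.53% were called higher and 6.04% lower in the tumour gate, 1.23% and 4.99% in macrophages and 1.67% and 6.09% in T cells.

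The median log2 ratio of the 10 genes for phenformin over control was -0.02 in tumour cells, -0.12 in macrophages and -0.06 in T cells, where the medians of all genes were -0.10, -0.03 and -0.06. In macrophages Atf5 came nearest to a call, at 7.78 CPM with phenformin and 11.6 CPM in control (ratio 0.671, 95% interval 0.561 to 0.802), and Phgdh had a ratio of 0.735. In control 1 macrophage held 26 of the 261 Atf5 UMIs, and without the top Atf5 cell of each library the ratio was 0.726. In macrophages of 1 gate with no epithelial UMI it was 0.826 (95% interval 0.660 to 1.04), and 0.971 without their top Atf5 cells. Among neutrophils, 0 of 8 compared genes were higher and 1 was lower, where 3.54% and 6.11% of all genes were called. That gene was Asns, with 10.8 CPM (8 UMIs) with phenformin and 27.2 CPM (23 UMIs) in control (ratio 0.397, 95% interval 0.154 to 0.919). By the Krt5 and Krt14 measure tumour RNA would supply 152% of the Asns seen there with phenformin and 30.8% of that in control. In neutrophils of 1 gate with no epithelial UMI the ratio was 0.669, with an interval of 0.139 to 2.82. In the 12 phenformin and 15 control fibroblasts, 0 of 7 genes were higher and 1 lower (Atf4, ratio 0.507, 95% interval 0.346 to 0.737), where 6.95% and 9.33% of all genes were called.

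Over whole libraries, Trib3 (3.58 CPM with phenformin and 5.90 CPM in control, ratio 0.608, 95% interval 0.511 to 0.723) and Atf5 (21.5 and 33.6 CPM, ratio 0.639, 95% interval 0.596 to 0.686) were called lower, beside 9.83% of all genes called lower and 1.68% higher. Within the tumour gate the same ratios were 0.815 and 0.863. Tumour-gate cells, where both genes are highest, made up 3.83% of the phenformin library and 6.17% of the control library. What that share contributes to the whole-library ratios was not tested. Chac1 over whole libraries stood at 2.11, 3.49, 7.06 and 1.5 CPM in phenformin, combination, poly I:C and control. Its ratio for the combination over poly I:C was 0.495, where 3.92% of all genes were called higher and 3.23% lower. Its ratio for poly I:C over control was 4.71, where 4.67% and 10.7% were called.

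On a poly I:C background, phenformin went with less Chac1. Chac1 stood at 7.80 CPM in tumour cells of the combination, against 12.8 CPM with poly I:C alone (ratio 0.609, 95% interval 0.468 to 0.788). T cells held 3.22 CPM with the combination and 6.46 CPM with poly I:C (ratio 0.499, 95% interval 0.369 to 0.670). Macrophages held 0.698 CPM with the combination and 1.98 CPM with poly I:C (ratio 0.352, 95% interval 0.208 to 0.574). Trib3 in T cells was also lower, at 2.65 CPM with the combination and 4.22 CPM with poly I:C (ratio 0.627, 95% interval 0.443 to 0.883). Chac1 was thus lower in the combination in each of the 3 whole gates that held enough of it to compare. In cells of 1 gate with no epithelial UMI the T cell ratio was 0.430 (95% interval 0.295 to 0.620). The macrophage ratio there was 0.596 (95% interval 0.267 to 1.27), which is not a call.

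The called genes for the combination over poly I:C were 0 higher and 1 lower of 10 in tumour cells, where 3.14% and 1.54% of all genes were called. In macrophages they were 0 higher and 1 lower of 10, beside 3.78% and 4.21%, and in T cells 0 higher and 2 lower of 10, beside 2.11% and 5.09%. Neutrophils had 0 higher and 1 lower of 8, beside 6.36% and 14.9%: Phgdh, at 9.31 CPM with the combination and 23.6 CPM with poly I:C (ratio 0.394, 95% interval 0.188 to 0.766). It rested on 12 and 40 UMIs, and tumour RNA by the Krt5 and Krt14 measure would supply 39.7% and 41.4% of it. In neutrophils of 1 gate with no epithelial UMI, 2 and 2 UMIs were left (ratio 0.615, 95% interval 0.0446 to 8.49). Fibroblasts, 40 and 41 cells, had 3 higher and 0 lower of 7, beside 7.95% and 3.49%: Ddit3 (105 and 56.0 CPM, ratio 1.87), Ddit4 (225 and 112 CPM, ratio 2.01) and Phgdh (35.8 and 16.5 CPM, ratio 2.17). The members' medians were -0.07 in tumour cells, -0.03 in macrophages and -0.07 in T cells, and those of all genes 0.04, 0.04 and 0.01.

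These 2 phenformin comparisons, with and without poly I:C, share no library, so their ratios can be set against each other. The ratio for Chac1 on the poly I:C background divided by that without poly I:C was 0.395 in tumour cells (95% counting interval 0.221 to 0.707), 0.382 in macrophages (0.187 to 0.780) and 0.367 in T cells (0.196 to 0.687). In macrophages of 1 gate with no epithelial UMI the Chac1 ratios were 0.596 with and 0.942 without poly I:C, both with intervals that included 1. For Atf5 in macrophages the same quotient was 1.73 (1.36 to 2.19), and for Psat1 it was 1.47 (1.23 to 1.77) in macrophages and 1.39 (1.19 to 1.63) in T cells. In each case the ratio was under 1 without poly I:C and over 1 on its background. The Atf5 quotient includes the control macrophage that held 26 of the 261 Atf5 UMIs. In macrophages of 1 gate with no epithelial UMI the Atf5 ratio without poly I:C was 0.826 (95% interval 0.660 to 1.04). On its background it was 1.18 (95% interval 0.953 to 1.45), so both intervals included 1. Atf4 and Ddit4 had quotients between 0.864 and 1.07 in tumour cells, macrophages and T cells.

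**Figure D2:**
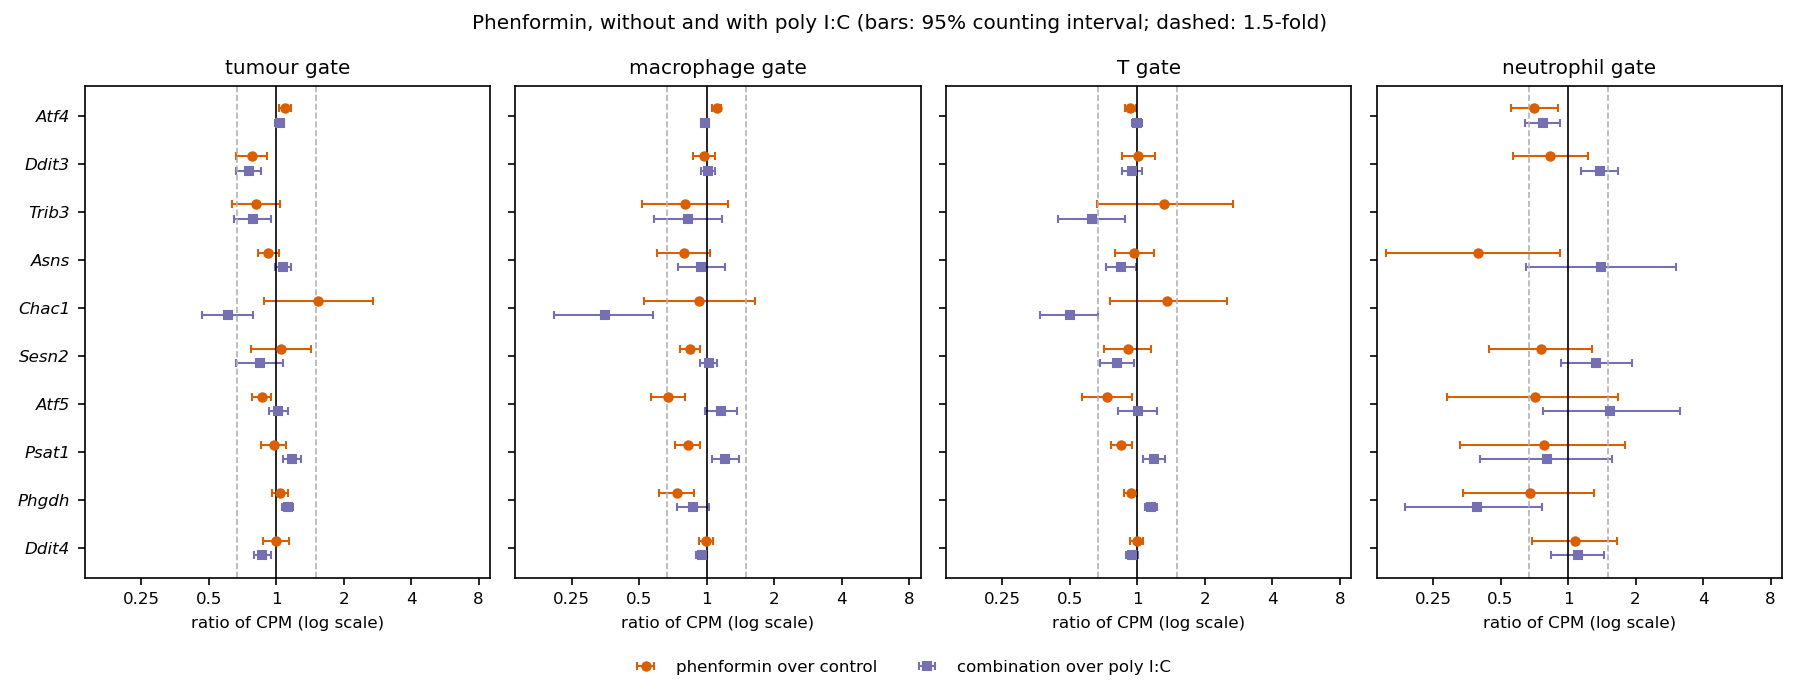
Ratio of CPM (log axis) for the combination over poly I:C (squares) and for phenformin over control (circles) per gene and gate; bars are 95% counting intervals, dashed lines mark 1.5-fold, and genes under 40 UMIs in a gate are not drawn. Most points lie between the dashed lines, and Chac1 on the poly I:C background lies to the left in tumour cells (0.609), macrophages (0.352) and T cells (0.499). Whole gates are drawn, and this macrophage Chac1 difference was not called in cells of 1 gate with no epithelial UMI.

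With poly I:C alone, individual genes of the set differed from control. Chac1 stood at 12.8 CPM in tumour cells with poly I:C (207 UMIs) and 2.83 CPM in control (28 UMIs), a ratio of 4.52 (95% interval 3.04 to 6.98). At least 1 Chac1 UMI was found in 115 of 592 tumour cells with poly I:C and in 17 of 376 control tumour cells, at median depths of 25767 and 25264.5 UMIs per tumour cell. T cells had 6.46 CPM with poly I:C and 1.38 CPM in control, a ratio of 4.69 (95% interval 2.94 to 7.83). After thinning each cell to 1000 UMIs the tumour ratio was 2.20. The control library enters this comparison and that of phenformin, and the poly I:C library this one and that of the combination. Chac1, with matching letters in its printed promoter, was thus higher with poly I:C in both gates, while Asns, which also holds such letters, had ratios of 0.884 in tumour cells and 1.24 in T cells. Trib3, the other gene with a match, had ratios of 0.997 in tumour cells and 4.03 in T cells.

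Ddit3 followed another distribution over cell types. Macrophages had 47.8 CPM with poly I:C and 25.1 CPM in control (ratio 1.90, 95% interval 1.73 to 2.09). T cells had 34.9 CPM with poly I:C and 18.2 CPM in control (ratio 1.92, 95% interval 1.67 to 2.21), and neutrophils 131 CPM with poly I:C and 79.2 CPM in control (ratio 1.65, 95% interval 1.25 to 2.21). In tumour cells, where Chac1 was higher, Ddit3 had 45.7 CPM with poly I:C and 47.3 CPM in control (ratio 0.966, 95% interval 0.859 to 1.09). That control value includes the 1 cell with 53 of its 468 Ddit3 UMIs. After thinning each cell to 1000 UMIs, 2.08%, 5.09%, 5.26% and 1.87% of macrophages held a Ddit3 UMI in phenformin, combination, poly I:C and control, and unthinned the shares were 24.7%, 36.2%, 40.4% and 19.7%. No gate lacked Ddit3, so free RNA could not be gauged from these shares.

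Trib3 was called higher with poly I:C in T cells, at 4.22 CPM against 1.05 CPM in control (ratio 4.03, 95% interval 2.34 to 7.36), on 85 and 16 UMIs. Without cells holding a Mki67 or Top2a UMI the ratio was 1.91, and after thinning it was 1.49. Ddit4 in tumour cells had 86.9 CPM with poly I:C and 56.6 CPM in control (ratio 1.53, 95% interval 1.39 to 1.70), just over the limit, and fell under 1.5-fold when cells were weighted equally (1.14). Lower genes were Atf5 in tumour cells (62.3 CPM with poly I:C and 114 CPM in control, ratio 0.548, 95% interval 0.503 to 0.597), Psat1 in macrophages (11.4 and 19.9 CPM, ratio 0.574, 95% interval 0.502 to 0.657) and Psat1 in T cells (27.0 and 43.9 CPM, ratio 0.615, 95% interval 0.548 to 0.690). The T cell difference in Psat1 was absent without Mki67 or Top2a cells, with a ratio of 1.03. In that gate 3 of 6 cell cycle genes, Ccnb1, Mki67 and Top2a, were lower with poly I:C.

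With poly I:C over control the tumour gate had 2 genes higher and 1 lower of 10, where 2.45% and 19.2% of all genes were called. Macrophages had 2 higher and 1 lower of 10, beside 5.03% and 6.52%, and T cells 3 higher and 1 lower of 10, beside 8.32% and 9.28%. In neutrophils 1 was higher and 1 lower of 8, beside 14.2% and 11%; the lower one was Asns (8.86 CPM with poly I:C and 27.2 CPM in control, ratio 0.326, 95% interval 0.158 to 0.652). Tumour RNA by the Krt5 and Krt14 measure would supply 51.6% and 30.8% of it, and with 2 and 6 UMIs in neutrophils of 1 gate without epithelial UMIs the call was lost (ratio 0.396, 95% interval 0.0391 to 2.22). In fibroblasts 2 were higher and 0 lower of 7, beside 8.08% and 16%: Ddit3 (56.0 and 14.6 CPM, ratio 3.83, 95% interval 1.40 to 14.7) and Sesn2 (33.1 and 7.31 CPM, ratio 4.53, 95% interval 1.13 to 39.4). Sesn2 there rested on 26 and 2 UMIs. Medians of the members were 0.05 in tumour cells, -0.05 in macrophages and 0.13 in T cells, and those of all genes -0.14, -0.05 and -0.05.

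On the phenformin background Ddit3 was again higher with poly I:C outside the tumour gate. The combination stood above phenformin in macrophages (48.3 and 24.4 CPM, ratio 1.98, 95% interval 1.81 to 2.16), T cells (33.1 and 18.4 CPM, ratio 1.80, 95% interval 1.57 to 2.06), neutrophils (182 and 66.1 CPM, ratio 2.75, 95% interval 2.01 to 3.82) and fibroblasts (105 and 23.1 CPM, ratio 4.53, 95% interval 2.09 to 11.7). In the whole gate the neutrophil ratio was 1.66 times (95% interval 1.10 to 2.50) that without phenformin. In neutrophils of 1 gate with no epithelial UMI it was not larger: 2.80 on the phenformin background and 2.997 without phenformin. The fibroblast value rested on 73 and 7 UMIs, and after thinning it turned to 0.45. Tumour cells again had no such difference, with 34.4 CPM in the combination and 36.8 CPM in phenformin (ratio 0.936, 95% interval 0.793 to 1.11). The Chac1 ratio was smaller than without phenformin, by the quotients given above: 7.80 and 4.36 CPM in tumour cells (ratio 1.79, 95% interval 1.15 to 2.85) and 3.22 and 1.87 CPM in T cells (ratio 1.72, 95% interval 1.11 to 2.73). In macrophages Chac1 had 0.698 CPM with the combination and 0.984 CPM with phenformin (ratio 0.710, 95% interval 0.391 to 1.27).

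Other calls for the combination over phenformin were Trib3 in T cells (2.65 and 1.37 CPM, ratio 1.93, 95% interval 1.17 to 3.30; 0.9499 without Mki67 or Top2a cells), Atf5 in tumour cells (63.8 and 98.2 CPM, ratio 0.650, 95% interval 0.583 to 0.725), Atf4 (ratio 1.97) and Ddit4 (ratio 1.55) in fibroblasts, and Phgdh in neutrophils (9.31 and 21.6 CPM, ratio 0.431). In phenformin 1 neutrophil held 13 of the 16 Phgdh UMIs, and the ratio turned to 1.29 without the 5% of cells with most UMIs, 1.76 with doubled gate limits and 1.45 without the top Phgdh cell of each library. Members higher and lower numbered 1 and 1 of 10 in tumour cells (2.64% and 3.43% of all genes), 1 and 0 of 10 in macrophages (8.55% and 4.42%) and 3 and 0 of 10 in T cells (7.52% and 3.38%). They numbered 1 and 1 of 8 in neutrophils (6.93% and 8.28%) and 3 and 0 of 7 in fibroblasts (7.07% and 6.86%). Atf5 was the one gene called lower in tumour cells with poly I:C on both backgrounds. Without cycling cells its call for the combination over phenformin was lost.

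**Figure D3:**
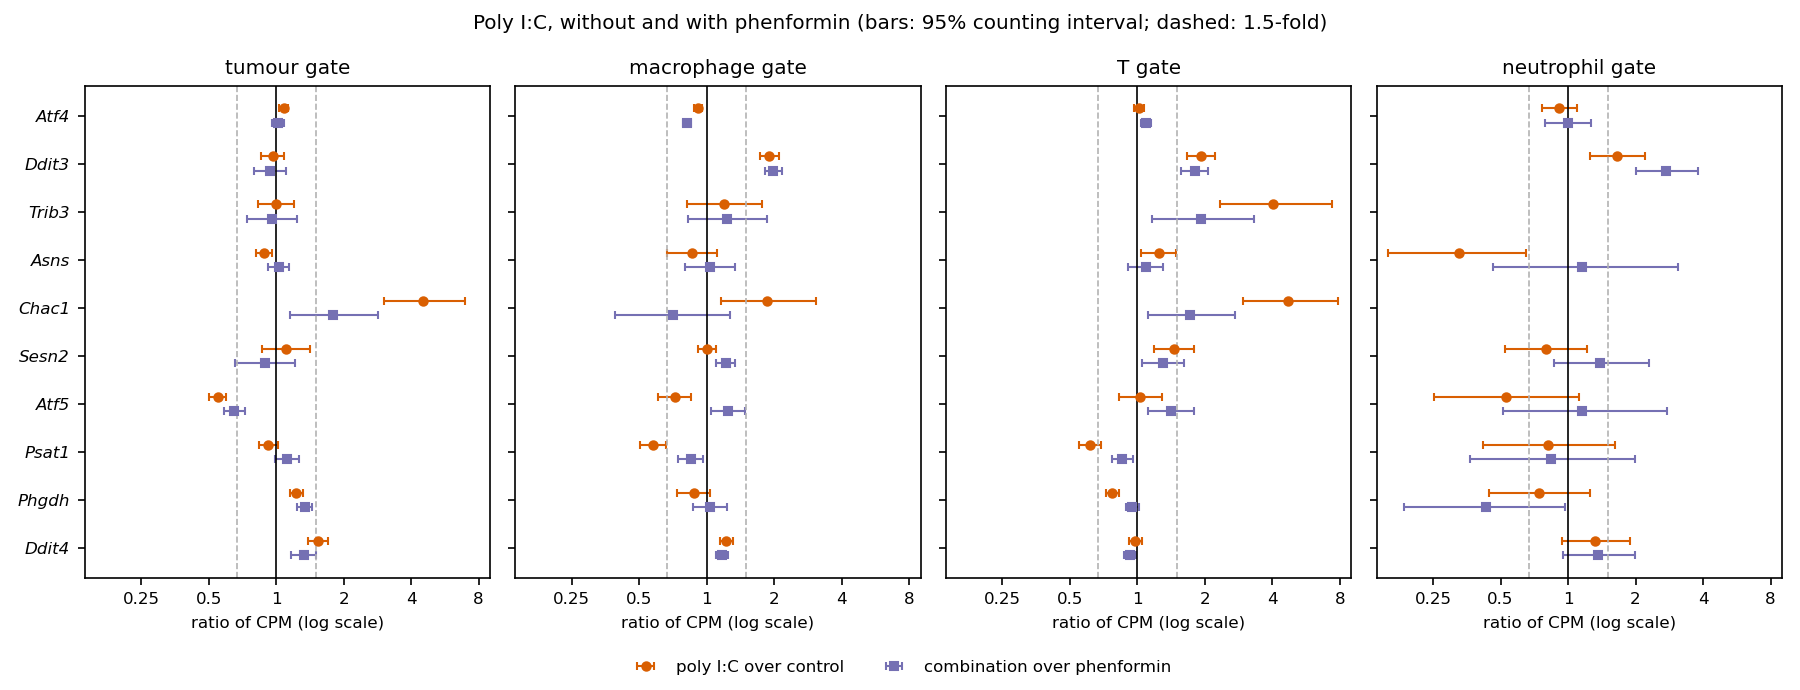
Ratio of CPM (log axis) for poly I:C over control (circles) and the combination over phenformin (squares) per gene and gate, drawn as in the plot of phenformin ratios. Ddit3 lies right of the 1.5-fold line in macrophages, T cells and neutrophils but near 1 in tumour cells, where Chac1 (4.52 and 1.79) lies to the right and Atf5 (0.548 and 0.650) to the left.

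Immune gates held RNA of other cells, in amounts that moved with treatment. The 6 tumour markers summed to 45.8, 194, 219 and 124 CPM in the T gate of phenformin, combination, poly I:C and control, and the macrophage markers to 1176, 2941, 4936 and 953 CPM there. The results above were therefore set beside cells that passed 1 gate and held no UMI of Krt5, Krt14, Krt17, Krt8, Krt18 or Epcam, an alternative chosen after the data were seen. In such T cells (1247, 2501, 1628 and 1272) Chac1 had 2.06, 3.13, 7.29 and 1.28 CPM, and poly I:C over control was 5.70 (95% interval 3.16 to 11.1). Trib3 had 0.944, 2.09, 4.04 and 0.984 CPM. Asns, not called in the whole gate, had 12.7, 11.2, 18.0 and 8.85 CPM, a ratio of 2.03 (95% interval 1.58 to 2.63) for poly I:C over control. Chac1 and Trib3 in T cells were thus as far apart between poly I:C and control with these cells alone, while Chac1 for the combination over phenformin (ratio 1.52, 95% interval 0.913 to 2.59) was not called there.

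In such macrophages (1842, 2128, 1873 and 1582 cells) Ddit3 had 24.4, 47.9, 48.7 and 25.9 CPM, as in the whole gate. Psat1 had 15.5, 11.9, 8.61 and 16.6 CPM (poly I:C over control 0.517, 95% interval 0.429 to 0.624). The macrophage Chac1 difference did not remain: levels were 0.884, 0.533, 0.896 and 0.939 CPM, with a ratio of 0.954 (95% interval 0.469 to 1.99) for poly I:C over control and 0.596 (95% interval 0.267 to 1.27) for the combination over poly I:C.

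Neutrophil values also moved under this restriction. In the 150, 205, 121 and 172 cells left in phenformin, combination, poly I:C and control, Ddit3 stood at 102, 287, 397 and 132 CPM. Poly I:C over control was 2.997 (95% interval 2.13 to 4.28) and the combination over phenformin 2.80 (95% interval 1.94 to 4.14). Combination over poly I:C, which was 1.39 in the whole gate, was 0.722 (95% interval 0.563 to 0.928) here. Atf4 in these neutrophils had 122, 155, 253 and 306 CPM. Phenformin over control was 0.398 (95% interval 0.274 to 0.569) and the combination over poly I:C 0.615 (95% interval 0.443 to 0.855), so that both libraries with phenformin stood below both without it. In control 1 cell held 42 of the 111 Atf4 UMIs. Without the top Atf4 cell of each library the levels were 107, 147, 240 and 191 CPM, and the ratios 0.559 (95% interval 0.366 to 0.842) and 0.609 (95% interval 0.433 to 0.858). In the whole neutrophil gate the ratios were 0.707 and 0.772, neither called.

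Chac1 was also found outside the 5 gates. Cells in no gate had 3.86, 7.22, 18.9 and 1.41 CPM in phenformin, combination, poly I:C and control, of which only the poly I:C value stood above that library's tumour gate. Phenformin over control was 2.73 (95% interval 1.47 to 5.29), where 1.9% of all genes were called higher and 4.37% lower. The combination over poly I:C was 0.381 (95% interval 0.280 to 0.514), beside 7% and 5.01%, and poly I:C over control was 13.4 (95% interval 7.97 to 24.1), beside 5.01% and 14.9%. Among them, cells with at least 20 UMIs of Jchain plus Mzb1, genes of antibody-secreting cells, and no UMI of the plasmacytoid dendritic cell gene Siglech numbered 22, 16, 63 and 31; they were set apart after their values were seen. These cells had 20.1 CPM of Chac1 in phenformin (95% interval 8.69 to 39.7, 8 UMIs), 95.4 in the combination (55.6 to 153, 17 UMIs), 123 in poly I:C (99.0 to 150, 93 UMIs) and 2.59 in control (0.0656 to 14.4, 1 UMI). The UMIs lay in 2, 3, 27 and 1 cells. In phenformin 1 cell held 5 of the 8, and in the combination 1 cell held 13 of the 17. In the poly I:C library they held 66.9% of the Chac1 UMIs found outside the gates. Their Ddit3 stood at 55.4, 39.3, 42.2 and 41.5 CPM, and Trib3 had at most 1 UMI per library. In the ungated cells that remained, Chac1 had 3.11, 5.49, 6.99 and 1.37 CPM.

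**Figure D4:**
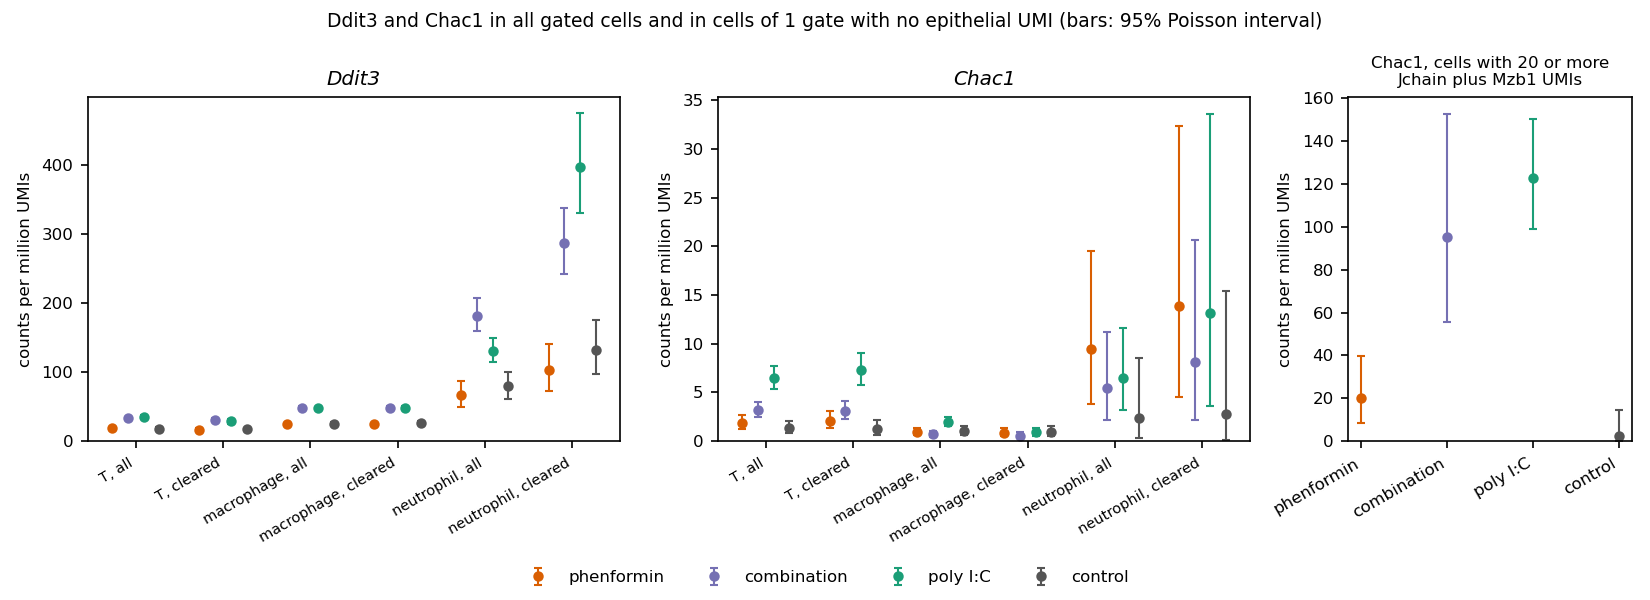
Ddit3 (left) and Chac1 (middle) in CPM, in all cells of a gate and in its cells of 1 gate with no epithelial UMI ("cleared"). The right panel shows Chac1 in cells of no gate with 20 or more Jchain plus Mzb1 UMIs and no Siglech UMI. Points are libraries (phenformin, combination, poly I:C, control from left to right) and bars 95% Poisson intervals. Cleared neutrophils reach 397 CPM of Ddit3 with poly I:C and 132 CPM in control, and Chac1 reaches 123 CPM with poly I:C in the Jchain and Mzb1 cells.

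Tumour cells with a Chac1 UMI had more of some other members per UMI in both libraries with poly I:C, as a description of the cells of each library. Phenformin and control held 16 and 17 such cells, under the minimum of 20 set for this comparison. They were not examined, so the pattern cannot be called particular to poly I:C. In the poly I:C library 115 tumour cells held a Chac1 UMI and 477 did not, with median depths of 32543 and 24669 UMIs. Trib3 had 37.7 CPM in cells with Chac1 and 13.3 CPM in cells without (ratio 2.83), rank 16 of the 10278 genes compared. Atf4 had 363 and 233 CPM (ratio 1.56) and Sesn2 17.9 and 10.1 CPM (ratio 1.77). In the combination, Trib3 had 29.2 CPM in 53 cells with Chac1 and 11.99 CPM in 367 without (ratio 2.44), Sesn2 a ratio of 2.42 and Ddit4 one of 2.13. Called higher were 2.38% of all genes in the poly I:C library and 2.89% in the combination. Thinned to 1000 UMIs, between 13.1% and 16.9% of tumour cells, 2.76% and 3.75% of macrophages and 4.24% and 4.99% of T cells held UMIs of 2 or more of the 10 genes. In neutrophils the share was 1.84% (95% interval 0.381 to 5.28) with phenformin, 11.3% with the combination, 8.70% with poly I:C and 8.29% in control.

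Calls among other genes of the response differed by gate and comparison. With phenformin over control, 0 of 7 other transcription factors were called in tumour cells, macrophages, T cells or neutrophils. Of all genes, 1.23% to 3.54% were called higher and 4.99% to 6.11% lower in those gates. In tumour cells 1 of 7 other transcription factors was higher with poly I:C over control, Nupr1 (153 and 69.5 CPM, ratio 2.21), a stress-induced chromatin protein, and 0 were lower. The combination over poly I:C had 0 of 7 higher and 2 lower, Atf3 (ratio 0.480) and Nupr1 (ratio 0.612), beside 3.14% and 1.54% of all genes. Of 8 amino acid transporters in tumour cells, 0 were higher and 3 lower with poly I:C over control (Slc6a9 0.478, the cystine carrier Slc7a11 0.575 and Slc1a4), with a list median of -0.37. Of 10 genes of serine, one-carbon and proline synthesis, 0 were higher and 3 lower (Gpt2 0.468, Aldh1l2 and Mthfd1l). In that gate and comparison 2.45% of all genes were called higher and 19.2% lower, with a median of -0.14.

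T cells had 4 of 7 other transcription factors higher and 0 lower with poly I:C over control (median 0.49), where 8.32% of all genes were higher and 9.28% lower, led by Nupr1 (42.3 and 13.8 CPM, ratio 3.06), Cebpb (628 and 381 CPM, ratio 1.65) and the antioxidant regulator Nfe2l2 (89.2 and 56.4 CPM, ratio 1.58). The macrophage marker sum in that gate was higher in the same direction, and its part in these 3 ratios was not tested. Of 9 other effectors 3 were higher and 1 lower, with Gdf15, a secreted stress cytokine, at 7.75 CPM with poly I:C and 0.524 CPM in control (ratio 14.8, 95% interval 7.32 to 34.8), the translation inhibitor Eif4ebp1 at 1.77 and the death receptor Tnfrsf10b lower. Gdf15 was lower with the combination than with poly I:C (2.30 and 7.75 CPM, ratio 0.296), as Chac1 and Trib3 were. Macrophage markers in the T gate summed to 4936 CPM with poly I:C, 2941 CPM with the combination and 953 CPM in control. Gdf15 stood higher in macrophages (values below), and the part of their RNA in these T gate values of Gdf15 was not tested. None of the 13 ER chaperones and IRE1 or ATF6 targets was called in T cells or in macrophages in any of the 4 comparisons. Of all genes there, 1.23% to 8.55% were called higher and 3.38% to 9.28% lower.

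In macrophages Gdf15 stood at 17.1 CPM with poly I:C and 5.86 CPM in control (ratio 2.92) and at 19.0 CPM in the combination and 7.08 CPM in phenformin (ratio 2.69); 2 of 9 other effectors were higher and 1 lower with poly I:C over control, beside 5.03% and 6.52% of all genes. Slc7a11 had 102 CPM in the combination and 243 CPM in phenformin (ratio 0.422), 1 of 3 amino acid transporters of 7 that were lower in that comparison, beside 4.42% of all genes. Neutrophils showed mixed directions: with poly I:C over control, where 14.2% of all genes were higher and 11% lower, 2 of 7 other transcription factors were higher and 4 lower, Atf3 having 88.0 and 253 CPM (ratio 0.348) and Nupr1 72.1 and 37.8 CPM (ratio 1.90). For the combination over poly I:C, beside 6.36% of all genes higher and 14.9% lower, 4 of 7 were higher and 0 lower, led by Nupr1 (231 and 72.1 CPM, ratio 3.21), while 0 of 13 tRNA synthetases were higher and 4 lower, led by Yars (ratio 0.389). Dissociation-response genes differed alongside in neutrophils, 0 of 10 higher and 4 lower with poly I:C over control, and their part in these values was not tested.

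Across the 20 sums of 5 gates by 4 libraries, the genes whose log2 level was most like the mean of the 10 members were Ptn (Pearson r = 0.91), Osr1 (0.91), Cdc42ep3 (0.91), Rraga (0.90) and Calm2 (0.90). With each gate's mean subtracted they were Aen (0.90), Bbip1 (0.89), Osr1 (0.89), Arl4a (0.89) and Dirc2 (0.87). The 20 sums share libraries and gates, so the values are a description. The members themselves were not one pattern: on levels, r with the mean that holds them was 0.88 for Asns, 0.36 for Ddit3, 0.01 for Ddit4 and -0.15 for Sesn2.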

How the data were processed

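The authors deposited 1 matrix of raw UMI counts per library with its genes and barcodes, not normalized. Per the submitters' processing notes the tool was Cell Ranger 3.1.0, on GRCm38 (mm10); the sources used here state no settings or filters. Gates on raw UMIs were Krt5 plus Krt14 of at least 5 with no Ptprc (tumour), Csf1r, Cd68 and Adgre1 summing to at least 3 (macrophage), Cd3d, Cd3e and Cd3g to at least 2 (T), S100a8 plus S100a9 of at least 5 with at least 1 of Csf3r or Cxcr2 (neutrophil) and Col1a1 plus Col3a1 of at least 10 with no Ptprc (fibroblast). A cell could pass several gates. Counts were summed per gate and scaled to CPM of the gate's total. Levels have exact Poisson intervals, ratios the exact interval conditional on the total, both at 95%, and ratios of ratios an interval from reciprocal counts. Medians use log2(CPM + 5). No doublet caller was run; cells in several gates and the 5% with most UMIs were left out as alternatives. Named were all members, up to 3 called genes per companion list in at most 3 lists per gate, and the 5 genes most like the members. The members, gates and lists were chosen with earlier results of these data known. Procedures were tested on simulated data. Python 3.11.15, numpy 2.4.6, scipy 1.17.1, pandas 2.3.3 and, for TMM factors, edgeR 4.0.16 in R 4.3.3 were used. Depth was lowest in the neutrophil gate, with sums of 740876 to 1692971 UMIs, and the fibroblast gate, with 273777 to 785678.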

Additional observations from a re-analysis of the deposited data

Results flagged for a closer look

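Phgdh differed in opposite directions for the combination over poly I:C, with a ratio of 2.17 in the fibroblast gate (25 and 13 UMIs) and 0.394 in the neutrophil gate (12 and 40 UMIs); the difference between the gates was not tested. The neutrophil ratio was 0.615 (95% interval 0.0446 to 8.49) in cells of 1 gate with no epithelial UMI and 1.16 in those that also had under 2 UMIs of Jchain plus Mzb1, on at most 2 UMIs per library. The other 2 values come from the 1086, 1035, 1049 and 1214 barcodes of phenformin, combination, poly I:C and control that the cell filter left out. Ddit3 there was 2.08 times as high in the combination as in control, on 35 and 21 UMIs. Asns was 9.81 times as high with poly I:C as in control, on 8 UMIs and 1 UMI, with a counting interval of 1.32 to 435.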

How the results depend on the processing

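No paired analysis was possible because each treatment has 1 library. A cell filter of 500 genes and 10% mitochondrial UMIs, no minimum UMI count and a pseudocount of 1 moved none of the 28 medians and counts. TMM scaling, which added 0.24 to every log2 ratio of poly I:C over control in tumour cells, raised that median to 0.22. Other medians that moved were 0.0413 for T cells, combination over poly I:C, with cells weighted equally; 0.60 for neutrophils, poly I:C over control, without the 5% of cells with most UMIs; and 0.0263 and 0.0214 for T cells, combination over phenformin, in cells of 1 gate without epithelial UMIs and also with under 2 UMIs of Jchain plus Mzb1. Over all gates, gene and gate pairs called higher and lower numbered 0 and 2 for phenformin over control, 3 and 5 for the combination over poly I:C, 10 and 4 for poly I:C over control and 9 and 2 for the combination over phenformin. The 2 lower for the combination over phenformin became 0 without cycling cells and 1 under TMM scaling, equal weights, thinning, 1 gate per cell, without the 5% of cells with most UMIs, doubled gate limits, 2-fold and both added restrictions. Thinning gave 0 higher and 1 lower for phenformin over control, 1 and 1 for the combination over poly I:C, 5 and 2 for poly I:C over control and 3 and 1 for the combination over phenformin. A 2-fold limit gave 0 higher and 1 lower, 2 and 3, 5 and 1, and 2 and 1 in the same comparisons. Without the 5% of cells with most UMIs phenformin over control had 1 higher, and without cycling cells 2 higher; doubled gate limits gave 4 lower. Without cycling cells the combination over poly I:C had 1 higher. Poly I:C over control had 2 lower without cycling cells, without the 5% and under both added restrictions. Turned round were Ddit3 in fibroblasts after thinning (0.769 against poly I:C and 0.45 against phenformin, both for the combination), Psat1 in T cells (1.03) and Trib3 in T cells, combination over phenformin (0.9499), both without cycling cells, and Chac1 in macrophages, poly I:C over control, without epithelial UMIs (0.954). Phgdh in neutrophils, combination over phenformin, turned to 1.29 without the 5% of cells with most UMIs, 1.76 with doubled gate limits and 1.42 in cells without epithelial UMIs and with under 2 of Jchain plus Mzb1, and combination over poly I:C to 1.16 under the last. Beyond construction the causes were not tested. Depth limits Chac1 and Trib3, at few UMIs per gate, and every neutrophil and fibroblast value.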

Other observations

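In tumour cells of the poly I:C library that held a Chac1 UMI, the genes highest over cells without one included the milk and iron carrier Trf (564 and 177 CPM), Apod (10.6 and 0.808 CPM) and the smooth-muscle genes Tagln (39.0 and 0.323 CPM) and Acta2 (50.1 and 8.49 CPM). In the combination they included Apod (37.7 and 1.33 CPM), Csn3, a milk casein (32.9 and 1.89 CPM), Lcn2 (1628 and 274 CPM) and Trf (1288 and 217 CPM). These genes were named after their values were seen, and cells with a Chac1 UMI were deeper (medians of 32543 against 24669 UMIs with poly I:C). The cells of a library are not replicates of its treatment.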
